A study of Mus musculus with 2931 samples.

Results

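The dividing endothelial cells of the neonatal mouse lung were compared at postnatal day 7 (P7) between mice kept in hyperoxia (raised inspired oxygen) and mice kept in normal air. The cells are those that carry the authors' subtype label Proliferative EC (EC, endothelial cell), and they were split by the treatment written in the cell name. They number 155 of the 2931 cells of the series, 66 from hyperoxia and 89 from normal air, and 390 cells carry the label at all ages. Single cells of the distal lung were sorted into plates and sequenced from libraries cut with the Tn5 transposase, without molecular identifiers. Each group held 1 female and 1 male mouse name, so n = 2 per group. The fits of Proliferative EC also held normal-air mice of embryonic day E18.5 and postnatal day P1, 1 female and 1 male each. The P1 mice gave few of these cells, 13 in the female and 9 in the male. Whether each name is a single animal or several pooled, the strain, the oxygen level and the length of exposure are not given in the sources used here.

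The female and male mice gave 55 and 34 Proliferative EC in normal air and 36 and 30 under hyperoxia. Pairs of values below follow this order, female then male. Reads were summed over the cells of a mouse, and a level is given as CPM, reads of a gene per 1000000 reads of that sum. The sums held 60712409 and 8951551 reads in normal air and 26657008 and 22752138 under hyperoxia, so the male normal-air mouse was the shallowest, with a median of 183457 reads per cell. All but 8 cells came from the gate for the endothelial surface protein CD31. Both male mice shared a sequencing run, and most cells of the female mice came from 2 other runs, a different one for each group, so for the female pair run and treatment cannot be told apart.

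Marker genes went with the label. This is a description, since the presence of cell-cycle genes is part of what the label selects. Mki67, the proliferation antigen, had reads in 85.5% and 94.1% of the cells in normal air and in 86.1% and 90.0% under hyperoxia, with every cell thinned to 50000 reads. In the Car4- capillaries of the same mice, the main non-cycling capillary class, the share was between 3.03% and 6.54%. Egfl7, an endothelial gene, had reads in all 155 cells. Erg was the least often read of the 6 endothelial markers, in 41.8% and 64.7% of thinned normal-air cells and 44.4% and 33.3% under hyperoxia. Ptprc, the common leukocyte antigen, had reads in 1 thinned cell of the 155, and Epcam, an epithelial adhesion gene, in 0. The mesenchymal gene Pdgfrb had reads in 0 and 5 thinned cells in normal air and 0 and 1 under hyperoxia. Col1a1, another such gene, had them in 2 and 2 and in 1 and 1.

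In newborn rodents, prolonged high oxygen damages the growing capillary bed and is used as a model of the chronic lung disease of preterm infants. Oxygen radicals break DNA. Damaged DNA stabilises the transcription factor p53, which switches on an inhibitor of cyclin-dependent kinases (Cdkn1a, the p21 protein), genes of the death machinery, and its own antagonist Mdm2. Dividing cells are the ones in which such an arrest would act. The class I molecules of the major histocompatibility complex (MHC) show peptides on the cell surface, and their promoters are driven by kappa B, interferon response and CCAAT elements.

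A match to the p53 consensus before Cdkn1a is shown because this gene is a listed p53 target of cell-cycle arrest. Of 24 listed targets, 16 had a RefSeq promoter window (build GRCm38.p6), taken as the 250 bases before a start. Both strands were searched for the p53 consensus, a pair of decamers with at most 13 bases between them. It was found in 18 of 27025 genes with a window (0.0666%) and, among these targets, in Cdkn1a alone. A single decamer was found in 8.20% of all genes and in 7 of the 16 targets. The stretch of Cdkn1a below ends 12 bases before the start of a RefSeq transcript. Capitals mark the decamers that fit the consensus. The stretch directly after the right-hand decamer misses the consensus at its first base alone and stays in lower case. A match of letters is a description and does not show that a factor was bound.
Cdkn1a (chr17:29090866-29090967, + strand): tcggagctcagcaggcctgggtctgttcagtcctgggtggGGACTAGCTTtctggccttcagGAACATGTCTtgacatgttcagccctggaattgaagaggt

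p53 targets were higher in Proliferative EC under hyperoxia. Of the 24 tested, 13 were higher in both hyperoxia mice than in either normal-air mouse, 2 were lower in both, and 9 overlapped. Among all 13102 genes tested, 16.6% were higher in both hyperoxia mice and 16.4% lower in both. Counts of the other lists below are to be read against these same shares. The median log2 change of the p53 targets was 1.56, against 0.00 over all genes. No gene of the table passed an adjusted p of 0.05 in edgeR's quasi-likelihood test (0 of 13102, 0.0%). Before adjustment 339 genes (2.59%) had a p under 0.05 in edgeR, 155 higher (1.18%) and 184 lower (1.4%), and 5 p53 targets were among the higher ones. The adjusted p of edgeR was 1 for every gene named below. These values come from the fit that also held the E18.5 and P1 mice. Without both P1 mice, 756 of 13176 genes had an unadjusted p under 0.05 in edgeR, and 1 passed the adjustment. With the P7 mice alone these counts were 587 of 11993 and 0.

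Cdkn1a (chromosome 17, 29090976 to 29100727) had 517 and 1052 CPM in normal air and 3356 and 2799.7 CPM under hyperoxia. Both hyperoxia mice lay above both others (log2 change 1.97, SE 0.48, unadjusted p 0.00171). DESeq2, run as an alternative, called 114 genes (0.87%), and Cdkn1a was among them with an adjusted p of 0.0038. In the male mice of the shared run the difference was 1.24 on the log2 scale of CPM + 1. In the younger groups Proliferative EC had 391 and 287 CPM at embryonic day E18.5 and 1513 and 851 CPM at P1. The female P1 mouse was the highest of the normal-air mice, and below both hyperoxia mice.

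The other genes of cell-cycle arrest were less even. Zmat3, an RNA-binding p53 target, had 0 and 8.49 CPM in normal air and 80.9 and 91.1 CPM under hyperoxia (unadjusted p 0.0911). Its reads came from 0.0% and 11.8% of thinned normal-air cells and from 52.8% and 26.7% of hyperoxia cells. Gtse1, a microtubule-binding gene of the second part of the cell cycle, had 80.5 and 87.02 CPM in normal air and 221 and 192 CPM under hyperoxia (unadjusted p 0.0721). These genes separated the groups. Ccng1, a cyclin that feeds back on Mdm2, had 31.7 and 13.5 and 89.5 and 19.6 CPM. Btg2, an antiproliferative gene, had 114 and 572 and 544 and 280.0 CPM, and Plk2, a polo-like kinase, 845 and 328 and 1440.3 and 840.2 CPM. In these last 3 genes the mice of the groups overlapped.

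Targets of cell death held 8 of the 13 genes that were higher in both hyperoxia mice, of 10 tested. Bax, which opens the outer mitochondrial membrane, had 91.5 and 146 CPM in normal air and 473 and 437 CPM under hyperoxia (log2 change 1.94, SE 0.55, unadjusted p 0.00462). The death receptor Fas had 52.99 and 104 and 190.4 and 225 CPM (log2 change 1.41, SE 0.49, unadjusted p 0.0155), and the inhibitor of Akt signalling Phlda3 had 61.8 and 179 and 378 and 435 CPM (log2 change 1.77, SE 0.77, unadjusted p 0.0415). All 3 were detected in more cells under hyperoxia: Phlda3 in 91.7% and 73.3% of thinned cells, against 32.7% and 55.9%.

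Eda2r, a receptor of the tumour necrosis factor family, had 0.0165 and 2.57 CPM in normal air and 49.9 and 36.96 CPM under hyperoxia (unadjusted p 0.055). The nuclease gene Aen had 11.4 and 51.2 and 124 and 126 CPM, and the death receptor Tnfrsf10b 9.04 and 36.4 and 58.1 and 88.8 CPM. Trp53inp1, a cofactor of p53-driven death, had 11.6 and 6.81 and 31.2 and 81.5 CPM. Pmaip1, which encodes the BH3-only protein Noxa, had 3.67 and 0.223 and 60.8 and 8.04 CPM, with most of the level in the female hyperoxia mouse. Each of these had an unadjusted p between 0.055 and 0.137. Bbc3, which encodes the BH3-only protein Puma, did not separate the groups, at 12.96 and 27.9 and 18.2 and 17.8 CPM. Perp, a membrane protein gene, had reads in the female hyperoxia mouse alone (20.5 and 0 CPM there and in the male).

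The repair and nucleotide genes of the list did not share the difference. Rrm2b, the p53-induced subunit of ribonucleotide reductase, was lower in both hyperoxia mice, at 3.301 and 0.747 against 14.4 and 5.697 CPM (unadjusted p 0.171). The damage recognition genes Ddb2 and Xpc had 7.61 and 16.2 and 14.8 and 15.1 CPM in normal air, and 30.1 and 0 and 13.1 and 26.5 CPM under hyperoxia. Polk, a translesion polymerase, had 23.2 and 17.8 and 21.8 and 61.6 CPM. Each of the last 3 overlapped between the groups.

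In the part of the list for feedback and stress metabolism, the secreted factor Gdf15 stood out. It had 0 and 1.56 CPM in normal air and 124 and 78.2 CPM under hyperoxia (log2 change 7.15, SE 2.21, unadjusted p 0.00903), and at E18.5 and P1 between 0 and 0.0148 CPM. The normal-air level rests on 14 reads, all of them in the male; without the female normal-air mouse the change was 6.05, and without the male no read is left to compare with. Of thinned cells, 0 of 55 and 1 of 34 had a read in normal air and 14 of 36 and 8 of 30 under hyperoxia. Sesn2, a stress-induced inhibitor of mTORC1, was higher at 64.4 and 38.7 against 11.7 and 14.1 CPM (unadjusted p 0.254), while its relative Sesn1 was lower at 9.003 and 8.04 against 20.8 and 26.5 CPM (unadjusted p 0.259). Mdm2 had 101 and 33.5 and 175 and 80.2 CPM, and the groups overlapped. None of the 11 listed regulators of p53 had an unadjusted p under 0.05, and Trp53 itself had 232 and 241 and 322 and 213 CPM. Mdm4, a further brake on p53, had 121 and 101 and 88.9 and 130.5 CPM.

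**Figure D1:**
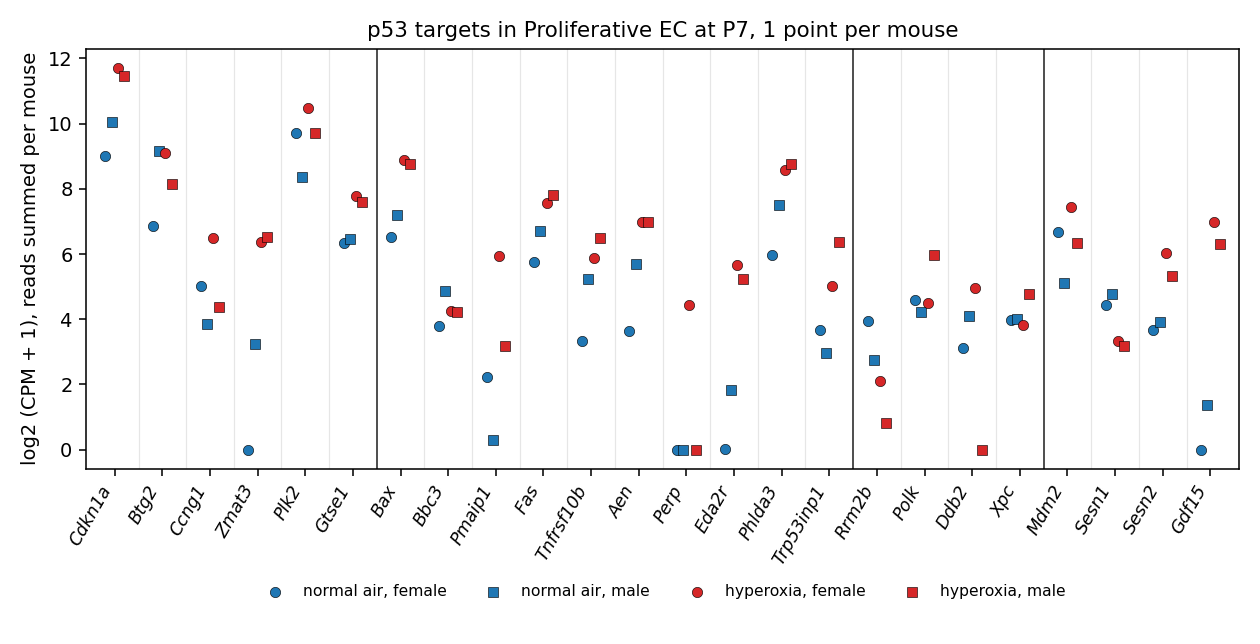
Level of each p53 target in Proliferative EC at P7 as log2 (CPM + 1) of the reads summed per mouse. Blue points are the normal-air mice and red points the hyperoxia mice, circles female and squares male, and dark lines divide arrest, death, repair and feedback genes. Of the 24 genes, 13 have both red points above both blue points, 8 of them among the 10 death genes.

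The count of 13 p53 targets higher in both hyperoxia mice was 14 with CD31-gate cells alone, 14 with cells thinned to 50000 reads and 14 with every cell weighted equally. The median log2 change of the list in the male mice of the shared run was 1.10 on the scale of CPM + 1, with 18 of 24 genes higher, against a median of -0.03 over all genes. There 5952 of all 13102 genes were higher. Without the male normal-air mouse the fitted median was 2.01.

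Among single cells the higher level was found in most of the female hyperoxia cells and divided the male ones. The summed level of the list had a median of 1860 and 1650 CPM per thinned cell in normal air and 7000 and 3890 CPM under hyperoxia. For Cdkn1a alone the medians per cell were 215 and 598 CPM in normal air and 3354 and 954 CPM under hyperoxia. In the male hyperoxia mouse the lower quartile was 154 CPM and the upper 4880 CPM, and 6 of 30 cells had no Cdkn1a read. In the female hyperoxia mouse 1 of 36 cells had none. By share of thinned cells with a Cdkn1a read the groups overlapped, at 63.6% and 82.4% in normal air and 97.2% and 80.0% under hyperoxia. The highest single cell was in the male normal-air mouse, at 13365 CPM.

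Cells high in Cdkn1a were also high in the rest of the list under hyperoxia. Spearman's rho between Cdkn1a and the sum of the other p53 targets was 0.69 in the 36 female and 0.78 in the 30 male hyperoxia cells. In normal air it was 0.09 over 55 and 0.08 over 34 cells. These are descriptions, since the cells of a mouse share its libraries and both measures share a cell's depth. Against the sum of the mitosis genes, rho was -0.07 and -0.09 in normal air and 0.17 and -0.33 under hyperoxia. Against the sum of the DNA replication genes it was 0.50 and 0.42 in normal air and 0.16 and 0.22 under hyperoxia.

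Cells with reads of Mki67, Top2a and Ccnb1 together, the genes of proliferation, chromosome untangling and entry into mitosis, were not fewer under hyperoxia. They made up 50.9% and 64.7% of the cells in normal air and 72.2% and 70.0% under hyperoxia, over all reads. Their median Cdkn1a level was 176 and 684 CPM in normal air and 4207 and 1224 CPM under hyperoxia. Of these cells, 25 of 26 in the female and 18 of 21 in the male hyperoxia mouse had a Cdkn1a read, and 18 of 28 and 20 of 22 in normal air. Transcripts of the inhibitor and of mitosis were thus read in the same wells.

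**Figure D2:**
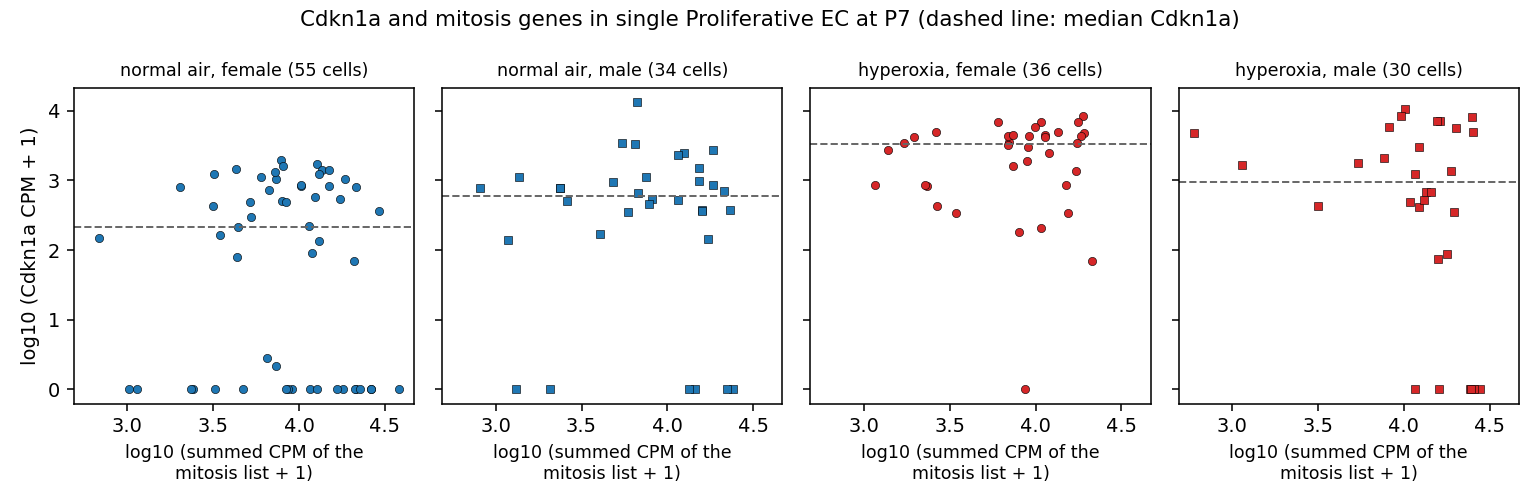
Cdkn1a level against the summed level of the 23 mitosis genes in each Proliferative EC, both as log10 (CPM + 1), in 1 panel per mouse. The dashed line is the median Cdkn1a level, 215 and 598 CPM in normal air and 3354 and 954 CPM under hyperoxia. In the female hyperoxia mouse the median was 4252 CPM in cells with more mitosis RNA and 2318 CPM in those with less. In the male hyperoxia mouse it was 354 and 1679 CPM, the other way round.

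Cell-cycle genes of the class did not separate the groups as the p53 targets did. Their presence is part of what the label selects, so their levels within it are a description. Of 23 mitosis genes, 2 were higher in both hyperoxia mice, 0 were lower in both and 0 had an unadjusted p under 0.05; the median log2 change was 0.11. Those 2 were Mki67, at 776 and 866 against 668 and 496 CPM, and the kinetochore gene Cenpf, at 556 and 1090.3 against 446 and 546 CPM. Top2a, topoisomerase II, had 906 and 1444 and 928 and 1914 CPM, and the ubiquitin-conjugating enzyme Ube2c of mitotic exit 1076 and 1098 and 974 and 1399 CPM. Summed over the list, the median thinned cell had 8800 and 8270 CPM in normal air and 8540 and 14270 CPM under hyperoxia. The male hyperoxia mouse was thus the one above the rest. In CD31-gate cells of the male mice of the shared run, 20 of 23 mitosis genes were higher. Their median was 0.58 on the log2 scale of CPM + 1, against -0.03 over all genes. Of 23 DNA replication genes 11 were higher there, with a median of -0.02.

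Of 23 DNA replication genes, 2 were higher in both hyperoxia mice, 2 lower in both and 0 had an unadjusted p under 0.05, with a median of -0.04. The 2 lower ones belong to the helicase that opens origins: Mcm2, at 92.7 and 73.4 against 229 and 135 CPM (unadjusted p 0.0721), and Gins2, at 30.05 and 46.8 against 92.8 and 90.4 CPM (unadjusted p 0.142). Elsewhere in the list, the ribonucleotide reductase subunit Rrm2 had 1039.8 and 580.3 and 897 and 704 CPM. Slbp, which binds histone messages, had 427 and 362 and 434 and 378 CPM. The 10 genes of replication fork repair had 3 higher and 0 lower in both mice, a median of 0.10 and 0 at an unadjusted p under 0.05. H2afx, the histone variant marked at DNA breaks, had 286 and 383 and 198 and 424 CPM.

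Of 20 genes at the gate from G1 into S phase, 4 were higher and 2 lower in both hyperoxia mice. Over all genes these shares were 16.6% and 16.4%. Of the 20 other inhibitors of cyclin-dependent kinases, G1 cyclins and E2F genes, Cdkn1b and E2f1 had an unadjusted p under 0.05. Cdkn1b, the p27 inhibitor, was higher in both hyperoxia mice, at 71.7 and 137 against 24.1 and 44.01 CPM (log2 change 1.63, SE 0.71, unadjusted p 0.0437). The transcription factor gene E2f1, which drives S phase genes, was lower in both, at 14.2 and 0.659 against 96.5 and 27.6 CPM (log2 change -3.11, SE 1.37, unadjusted p 0.0443). The E2f1 change was -1.87 without the female normal-air mouse and -6.55 without the female hyperoxia mouse. The median log2 change of the 20 genes was 0.07. The rest of the list did not share the direction of these 2 genes. Of 5 inhibitors of cyclin-dependent kinases, 1 was higher and 1 lower in both hyperoxia mice, with a median of -0.14. Of 7 pocket protein and E2F genes, 6 had a log2 change above 0.

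Genes of MHC class I were lower. Promoter stretches of 3 of them are shown because the genes shared a direction and have closely related control regions. Of 11 genes listed, 9 had a window in RefSeq (GRCm38.p6). The kappa B consensus, searched on both strands, occurred in 6 of the 9 and in 8.23% of all 27025 genes. The interferon response motif TTTCACTT occurred in 5 of the 9 and in 1.62%, and CCAAT in 9 of 9 and in 37.5%. None of these motifs overlaps another in the stretches below, where capitals mark, from left to right, kappa B, interferon response and the reverse complement of CCAAT.
H2-K1 (chr17:34000349-34000478, - strand): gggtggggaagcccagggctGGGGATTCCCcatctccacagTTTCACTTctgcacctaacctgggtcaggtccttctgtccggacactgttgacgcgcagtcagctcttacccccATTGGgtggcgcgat
H2-D1 (chr17:35262903-35263032, + strand): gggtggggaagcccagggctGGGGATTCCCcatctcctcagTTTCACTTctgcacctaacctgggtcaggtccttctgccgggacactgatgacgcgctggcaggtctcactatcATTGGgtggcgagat
H2-Q7 (chr17:35439002-35439129, + strand): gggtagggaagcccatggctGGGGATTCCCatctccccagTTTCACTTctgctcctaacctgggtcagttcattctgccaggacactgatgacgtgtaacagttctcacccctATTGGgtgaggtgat
The H2-K1 stretch matched that of H2-D1 at 119 of 131 aligned positions and that of H2-Q7 at 112 of 132. A match of letters is a description and does not show that a factor was bound.

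Of the 11 MHC class I genes tested, 8 were lower in both hyperoxia mice and 0 higher in both, with a median log2 change of -1.28. Over all genes tested, 16.4% were lower in both and 16.6% higher in both. H2-K1 (chromosome 17, 33996017 to 34000347), a classical presenting molecule, had 900.5 and 918 CPM in normal air and 201 and 307 CPM under hyperoxia. Both hyperoxia mice lay below both others (log2 change -1.84, SE 0.42, unadjusted p 0.00111), and DESeq2 called the gene with an adjusted p of 0.00143. Reads were found in 81.8% and 88.2% of thinned normal-air cells and in 55.6% and 36.7% of hyperoxia cells. The other classical gene, H2-D1, had 2069.6 and 2303 CPM in normal air and 1079 and 1366 CPM under hyperoxia (log2 change -0.84, unadjusted p 0.113).

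Among the nonclassical genes, H2-Q7 (chromosome 17, 35439155 to 35443773) had 205 and 218 CPM in normal air and 79.6 and 79.8 CPM under hyperoxia (log2 change -1.42, SE 0.53, unadjusted p 0.0212). It was read in 50.9% and 76.5% of thinned normal-air cells and in 13.9% and 16.7% under hyperoxia. H2-Q6 had 190.2 and 96.7 and 6.08 and 34.2 CPM, and H2-Q4 20.6 and 22.2 and 4.35 and 5.45 CPM. H2 genes have near-identical copies, so how reads were split among them is uncertain.

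The partners of the heavy chains were mixed. Tap1, a subunit of the peptide transporter, was lower in both hyperoxia mice at 36.5 and 26.3 against 90.8 and 59.99 CPM, and Tapbp, which tethers the transporter, at 219 and 185 against 233 and 300.4 CPM. Nlrc5, the class I transactivator, had 16.6 and 3.91 CPM in normal air and 0 and 0.4395 CPM under hyperoxia. The light chain gene B2m did not separate the groups, at 1386 and 1547 and 967 and 1687 CPM. Neither did Tap2, at 83.8 and 42.0 and 55.9 and 59.95 CPM, nor H2-T23, at 50.9 and 24.2 and 18.2 and 32.2 CPM.

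Irf1, a transcription factor of interferon responses, was lower too, at 105 and 56.1 against 214 and 391 CPM (log2 change -1.91, SE 0.49, unadjusted p 0.00248; DESeq2 adjusted p 0.0321). The interferon-stimulated genes as a list did not follow. Of 12, 1 was higher in both hyperoxia mice, 3 were lower in both and 0 had an unadjusted p under 0.05, with a median of 0.09. Bst2, the tetherin gene, was the 1 higher gene, at 289.7 and 489 against 139.5 and 243 CPM, and Oasl2 had 31.3 and 53.7 and 78.7 and 34.9 CPM.

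Seen along the ages, the hyperoxia levels of H2-K1 lay below those of P1. Proliferative EC had 54.9 and 53.5 CPM of H2-K1 at E18.5, 506 and 381 at P1 and 900.5 and 918 at P7 in normal air, against 201 and 307 at P7 under hyperoxia. H2-Q7 had 14.2 and 15.8 CPM at E18.5 and 87.4 and 40.7 at P1. Its hyperoxia values of 79.6 and 79.8 CPM lay within the range of the P1 mice.

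**Figure D3:**
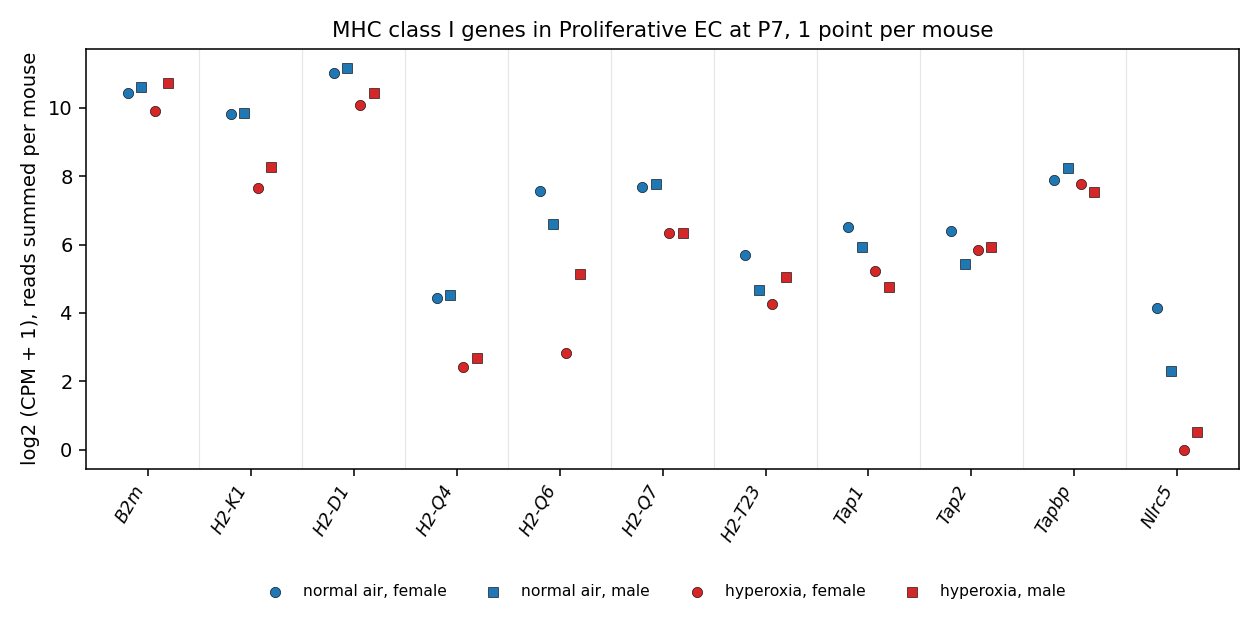
Level of the 11 MHC class I genes in Proliferative EC at P7 as log2 (CPM + 1) of the reads summed per mouse, with blue points for normal air, red for hyperoxia, circles for females and squares for males. In 8 genes both red points lie below both blue points; B2m, H2-T23 and Tap2 overlap.

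By rank of unadjusted p, the 10 named genes that were higher in both hyperoxia mice were Mmrn2, Ces2e, Cdkn1a, Bax, Sulf2, Lyve1, Gdf15, Cd200, Ecm1 and Fas. The 10 lower ones were H2-K1, Irf1, Rbfox2, Slc6a6, Aplnr, Pi4k2a, Dbn1, Mtch1, Acly and Flii. DESeq2 called 9 of the 20.

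Mmrn2 (chromosome 14, 34375465 to 34404287), an extracellular matrix protein of endothelium, had the smallest p. It had 90.1 and 84.1 CPM in normal air and 382 and 458 CPM under hyperoxia (log2 change 2.26, SE 0.45, unadjusted p 4.10e-04; DESeq2 adjusted p 2.21e-04). Its reads were found in 36.4% and 47.1% of thinned normal-air cells and in 86.1% and 83.3% of hyperoxia cells. Lyve1, a hyaluronan receptor known from lymphatic vessels and also present on lung capillaries, had 1117 and 801 CPM in normal air and 2901 and 2554 CPM under hyperoxia (log2 change 1.49, SE 0.43, unadjusted p 0.00564). Of 3 lymphatic markers tested, Lyve1 among them, 2 were higher in both hyperoxia mice. All 3 had a log2 change above 0, with a median of 5.11. The 5 listed lymphatic markers summed to 1117 and 801 CPM in normal air and 2906 and 2561 CPM under hyperoxia, nearly all of it Lyve1. Prox1, the lymphatic master regulator, had a read in 1 of the 155 thinned cells.

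Ces2e, a carboxylesterase gene, had 14.4 and 14.1 CPM in normal air and 246 and 133 CPM under hyperoxia (log2 change 3.72, unadjusted p 0.0013). Sulf2, an enzyme that trims heparan sulfate, had 1.55 and 6.93 and 72.2 and 94.9 CPM (log2 change 4.33, unadjusted p 0.00532). Ecm1, a matrix glycoprotein, had 188 and 169 and 380.0 and 513 CPM, and the membrane glycoprotein Cd200, which restrains myeloid cells, 232 and 193 and 613 and 435 CPM.

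On the lower side, the apelin receptor Aplnr, a marker of general capillaries, had 423 and 219 CPM in normal air and 72.3 and 119 CPM under hyperoxia (log2 change -1.76, SE 0.55, unadjusted p 0.00842). Of 7 other markers of general capillaries, 1 was higher and 2 were lower in both hyperoxia mice, with a median log2 change of 0.17. Slc6a6, the taurine transporter, had 392 and 301 and 113 and 80.9 CPM (log2 change -1.85, SE 0.57, unadjusted p 0.00774). The splicing regulator Rbfox2 had 196 and 101 and 28.8 and 35.2 CPM (log2 change -2.23, SE 0.62, unadjusted p 0.00406). These genes had reads in at least 40% of the cells of every mouse.

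Pi4k2a, a phosphatidylinositol kinase, had 93.4 and 66.2 CPM in normal air and 7.99 and 9.45 CPM under hyperoxia. Dbn1, an actin-binding protein, had 132 and 115 and 33.05 and 42.5 CPM, and Mtch1, a mitochondrial membrane protein, 285 and 339 and 123 and 143 CPM. Acly, which makes cytosolic acetyl-CoA for lipid synthesis, had 73.4 and 54.5 and 19.1 and 13.9 CPM, and Flii, an actin-remodelling gene, 115 and 108 and 37.5 and 5.32 CPM.

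**Figure D4:**
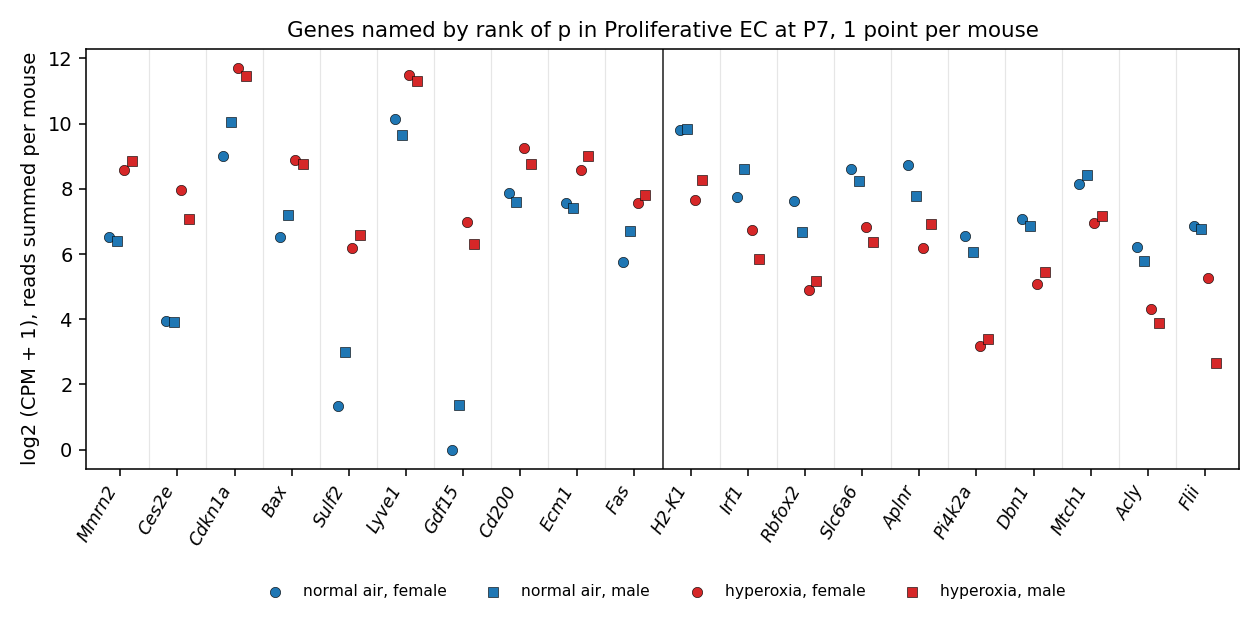
Level of the 20 genes named by rank of unadjusted p, as log2 (CPM + 1) of the reads summed per mouse, with the 10 genes higher under hyperoxia left of the dark line. Blue marks normal air, red hyperoxia, circles females and squares males. The separation of the colours is part of how the genes were picked.

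In the list of vessel growth receptors and ligands, 7 of 20 genes were higher in both hyperoxia mice and 3 lower in both, with a median of 0.43. The shares over all genes were 16.6% higher and 16.4% lower. Besides Aplnr, Nrp2 had an unadjusted p under 0.05. This coreceptor for VEGF and semaphorins had 1.84 and 1.34 CPM in normal air and 5.93 and 14.5 CPM under hyperoxia (log2 change 2.66, SE 0.94, unadjusted p 0.0164). Kdr, the main VEGF receptor, had 342 and 508 and 804 and 629.8 CPM (unadjusted p 0.103).

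The BMP and TGF-beta axis had 6 of 12 genes higher in both hyperoxia mice and 2 lower in both, with a median of 0.27. Of all genes tested, 16.6% were higher in both and 16.4% lower in both. Smad6, an inhibitor of BMP signalling and one of its targets, had 72.1 and 128 CPM in normal air and 197 and 328 CPM under hyperoxia (log2 change 1.40, SE 0.54, unadjusted p 0.0259). The ligand gene Bmp4 had 10.3 and 24.02 and 152 and 44.6 CPM (log2 change 2.52, SE 1.05, unadjusted p 0.0358), and Inhba, a subunit of activin, 0.0329 and 0.112 and 20.97 and 1.41 CPM. Bmp4 was read in 9.09% and 14.7% of thinned normal-air cells and in 30.6% and 13.3% under hyperoxia, so these shares overlapped. Inhba was read in at most 11.1% of the cells of any mouse. Eng, the coreceptor endoglin, had 1058 and 1057 and 1411 and 1781 CPM (unadjusted p 0.177).

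Among matrix genes, Lamb1, a laminin chain of the basement membrane, had 15.5 and 47.03 CPM in normal air and 67.5 and 104 CPM under hyperoxia (log2 change 1.48, SE 0.58, unadjusted p 0.0264). It was the 1 gene of 13 in its list with an unadjusted p under 0.05, and the list had a median of 0.30. Its change was 0.92 without the female and 2.43 without the male normal-air mouse. Of 12 secreted stress factors, 4 were higher and 3 lower in both hyperoxia mice, with a median of 0.21, and 3 had an unadjusted p under 0.05. The protease inhibitor Serpine2 had 46.3 and 233 and 499 and 428 CPM (log2 change 1.75, SE 0.68, unadjusted p 0.027). Its change was 1.04 without the female and 3.27 without the male normal-air mouse. Igfbp5 and Cxcl1 were the other two, and their reads lay in a few cells of the male normal-air mouse.

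In that mouse 2 cells of the CD31 gate carried over 1000 CPM of 8 mesenchymal markers in sum. Per mouse the markers summed to 13.3 and 300.4 CPM in normal air and to 24.5 and 10.7 CPM under hyperoxia. The chemokine gene Cxcl1 had 0 and 53.8 CPM in normal air and 0 and 0 CPM under hyperoxia, and the 2 cells held all 482 of its reads in the male. The pericyte gene Cspg4 had 0.0329 and 24.9 and 0.0375 and 0.04395 CPM, with 220 of 223 male reads in the same cells. Igfbp5, an IGF-binding protein, had 0.329 and 93.4 CPM in normal air and 0 and 0 under hyperoxia, and 835 of its 836 male reads came from the 1 cell of the gate named mesench. Without the 2 cells 13 p53 targets were still higher in both hyperoxia mice and 8 MHC class I genes lower in both.

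Other cell classes contributed few reads. The 6 immune markers summed to 6.39 and 5.70 CPM in normal air and to 21.2 and 16.7 CPM under hyperoxia, and the 5 erythroid markers to between 0 and 15.8 CPM. Laptm5, a leukocyte lysosomal gene, had 0 and 0 and 1.54 and 7.38 CPM, and Alas2, of erythroid haem synthesis, 0 and 0 and 15.7 and 2.29 CPM. The 6 endothelial markers summed to 7908 and 9733 CPM in normal air and to 9357 and 9262 CPM under hyperoxia. Egfl7 had 3845 and 5346 and 4966 and 4729.5 CPM, and the tight junction gene Cldn5 1685 and 2114 and 2025 and 1925 CPM. The arterial gene Mgp, at 0.0165 and 0.112 and 1.24 and 19.4 CPM, was read in at most 3.33% of the cells of any mouse.

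Several lists named for oxygen and stress stayed near the median of all genes. Of 15 targets of NRF2, the regulator of antioxidant genes, 2 were higher and 2 lower in both hyperoxia mice, with a median of 0.22 and 0 at an unadjusted p under 0.05. Prdx1, a peroxiredoxin, had 633 and 738 and 692 and 907 CPM, and Txn1, thioredoxin, 522 and 788 and 516 and 602 CPM. Of 11 targets of the hypoxia-inducible factor, 1 was higher and 2 lower, with a median of -0.09. Ankrd37 was the one with an unadjusted p under 0.05, at 16.7 and 17.9 CPM in normal air and 2.21 and 0 CPM under hyperoxia (log2 change -3.97, SE 1.70, unadjusted p 0.0391). Without the male hyperoxia mouse its change was -2.99, and without the female no read is left in that group.

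Of 19 immediate early and heat shock genes, 1 was higher and 3 lower in both hyperoxia mice, 0 had an unadjusted p under 0.05, and the median was -0.25. Dusp1, a phosphatase of stress kinases, had 875 and 949 and 1598 and 1108 CPM, and Fos, a subunit of AP-1, 484 and 1341 and 1108 and 278 CPM. In the Bcl2 family the pro-apoptotic gene Bik was lower, at 12.04 and 8.92 against 29.4 and 58.5 CPM (log2 change -2.07, SE 0.74, unadjusted p 0.0175). The 4 anti-apoptotic members had a median of 0.34, and none separated the groups.

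The same mice gave 206 and 116 Car4- capillary cells in normal air and 153 and 132 under hyperoxia, against which the dividing cells were set. In these capillaries the 23 p53 targets tested had a median log2 change of 1.24 and the 11 MHC class I genes one of -0.74, against -0.01 over all genes. The difference between the changes of the classes was tested with the mouse as a term over 7 mice. It passed an adjusted p of 0.05 for 0 of 15610 genes in edgeR (0.0%), and 199 (1.27%) had an unadjusted p under 0.05. The call rate was 79 genes (0.506%) with DESeq2 and 7 of 13418 (0.0522%) with edgeR on thinned cells.

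Cdkn1a was among those 7. It had 209 and 212 CPM in the normal-air Car4- capillaries and 2339 and 3403 CPM in the hyperoxia ones. The normal-air level of the dividing cells was higher, at 517 and 1052 CPM, and their hyperoxia level, 3356 and 2799.7 CPM, lay in the same range. The change in Proliferative EC was the smaller one, with a difference of -1.72 on the log2 scale (SE 0.79, unadjusted p 0.0609) over all reads. With cells thinned to 50000 reads it was -1.89 with an adjusted p of 0.0227 in edgeR.

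Lyve1 also differed in size, with 825 and 732 CPM in normal-air and 4023 and 3633 CPM in hyperoxia Car4- capillaries (difference -0.80, SE 0.22, unadjusted p 0.00588). H2-Q7 went from 169 and 151 to 17.2 and 10.01 CPM there, a larger difference than in the dividing cells (difference 2.17, SE 0.63, unadjusted p 0.00846). Rbfox2 had 80.3 and 71.4 and 66.8 and 59.8 CPM in Car4- capillaries (difference -1.92, unadjusted p 0.0111), and Flii 68.4 and 90.8 and 82.9 and 126 CPM (difference -3.37, unadjusted p 0.0176). None of these 4 passed the adjustment over all genes.

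The G1 cyclin Ccnd1 had 456 and 458 CPM in normal-air and 1310.4 and 1098 CPM in hyperoxia Car4- capillaries. Proliferative EC had 290.1 and 334 and 529 and 436 CPM of it (difference -0.80, SE 0.37, unadjusted p 0.0604). For Bax the fitted changes were 1.94 in Proliferative EC and 2.00 in Car4- capillaries (difference -0.06, SE 0.39), and for H2-K1 -1.84 and -1.31 (difference -0.61, SE 0.37).

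**Figure D5:**
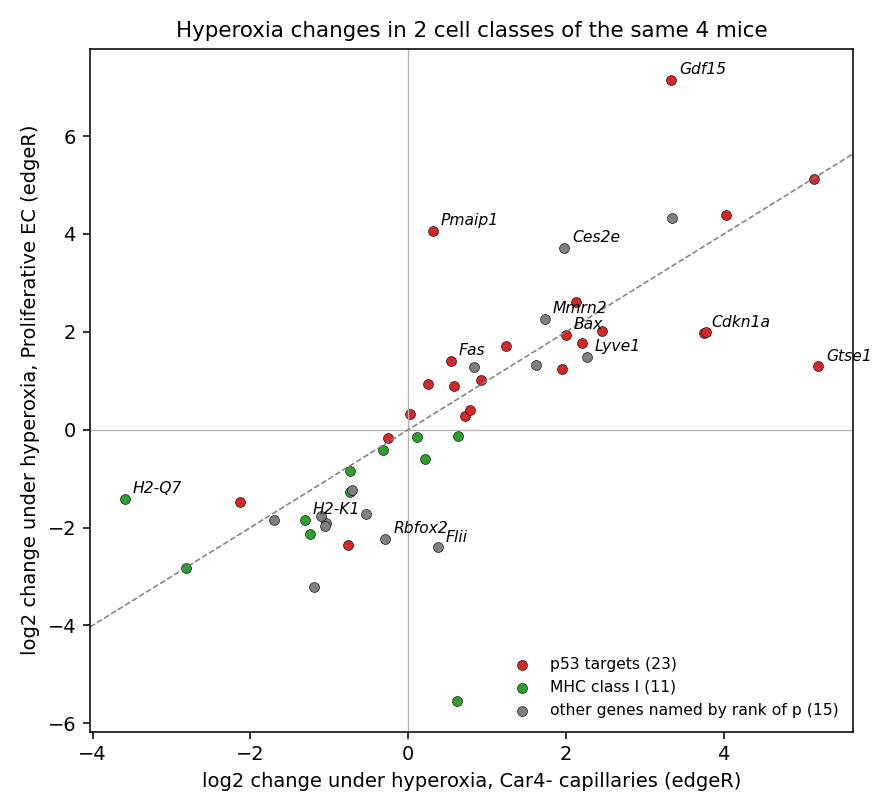
Fitted log2 change under hyperoxia in Proliferative EC against that in Car4- capillaries of the same 4 mice, for 23 p53 targets, 11 MHC class I genes and 15 other named genes. The dashed line marks equal changes. Cdkn1a lies below the line, at 1.97 against 3.75, and Bax close to it, at 1.94 against 2.00.

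Dividing cells made up a slightly smaller share of the CD31-gate endothelium under hyperoxia. They were 50 of 320 cells (15.6%, 95% Clopper-Pearson interval 11.8% to 20.1%) and 33 of 200 (16.5%, 11.6% to 22.4%) in normal air. Under hyperoxia they were 34 of 265 (12.8%, 9.05% to 17.5%) and 30 of 254 (11.8%, 8.11% to 16.4%). Both hyperoxia mice lay below both others, with a difference of the means of -3.74 percentage points, and all 4 intervals overlap. The exact permutation test, 2-sided, gave p = 0.333, which is the smallest it can give with 2 mice against 2. Intervals cover counting error only.

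A further label, Proliferative venous EC, was given to 5 cells of each hyperoxia mouse and to 0 of 320 and 0 of 200 CD31-gate cells in normal air, which allows shares of up to 0.938% and 1.50%. All 10 had reads of Vwf, a gene of larger vessels, when thinned, against at most 17.6% of the Proliferative EC of any mouse. Cdkn1a was read in 10 of the 10. With them counted in, the share of dividing cells was 14.7% and 13.8% under hyperoxia, and the difference from normal air was -1.81 percentage points. How the labels of the hyperoxia cells were assigned is not given in the sources used here.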

How the data were processed

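The authors deposited whole read counts per gene symbol and cell, without normalization, and a metadata table with their own read count per cell. The submitters' processing notes name STAR 2.5.2b, HTSeq 0.10 and the human build GRCh38, without saying what each was used for. The table has 18072 symbols, none of them mitochondrial or ribosomal protein genes; positions are those of the symbol in GENCODE M21 (GRCm38). A deposited sample is a single cell, and mice served as replicates; where mouse names are not separate animals, p-values measure only the spread between these samples. No doublets were removed, and no cell columns were identical.

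Reads were summed per mouse and tested with edgeR 4.0.16 (TMM, filterByExpr, quasi-likelihood test, Benjamini-Hochberg) over the 8 mice of E18.5, P1, P7 and P7 hyperoxia. With simulated counts of these depths, 10 of 100 genes changed 4-fold and 65 of 100 changed 16-fold were called, beside 6 false calls among 13102 genes. The changed genes were drawn from those above a minimum mean level, and all ages shared a baseline. These counts therefore do not cover genes of low level. No fold is given where a group had 3 or fewer reads. The members and lists were chosen with earlier results of these data known. Named were all p53 targets; per direction the 10 genes of smallest p whose mice did not overlap, with a mean of at least 50 CPM and a read in at least 25% of the cells of each mouse of the higher group, leaving out predicted, ribosomal, mitochondrial and pseudogene symbols; and of other lists the genes with an unadjusted p under 0.05, or else the 2 with the highest mean. A few others were chosen after their values were seen. Some values of the replication fork repair list are not reported here.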

Additional observations from a re-analysis of the deposited data

Results flagged for a closer look

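The lists hold 321 entries. In 5 listed genes both hyperoxia mice lay on opposite sides of the normal-air mice in Proliferative EC and in Car4- capillaries. Over all genes tested, 16.6% were higher and 16.4% lower in both hyperoxia mice in Proliferative EC. In Car4- capillaries 2396 of 12741 genes were higher in both and 1984 lower in both. How many of all genes lay on opposite sides was not counted, so the 5 are given as values alone. The fitted log2 change in Proliferative EC was 0.74 for the kinetochore gene Cenpf, 1.04 for the exonuclease gene Exo1, -0.26 for the chaperone gene Hsp90aa1, 0.58 for the retinoblastoma gene Rb1 and 0.43 for Rfc4, a subunit of the clamp loader. In Car4- capillaries the changes were -4.42, -1.24, 0.21, -0.70 and -0.33 in the same order. The test of the difference (edgeR) gave unadjusted p-values of 0.0264 for Cenpf, 0.182 for Exo1, 0.165 for Hsp90aa1, 0.319 for Rb1 and 0.454 for Rfc4, and an adjusted p of 1 for each. With cells thinned to 50000 reads, Cenpf alone of these passed (adjusted p 0.00266); its level in Car4- capillaries was 13.9 and 14.1 CPM in normal air and 1.33 and 0.0205 CPM under hyperoxia.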

How the results depend on the processing

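The count of genes past an adjusted p of 0.05, 0 in edgeR, was 114 with DESeq2, 10 without a filter on low counts and 1 without both P1 mice, and 0 to 4 with each mouse left out in turn (4 without the female and 2 without the male P1 mouse). It stayed at 0 with RLE normalization, CD31-gate cells, thinned cells, limma, the venous cells counted in, the P7 mice alone, and without cells with mesenchymal reads, an alternative added after seeing the data. With sex as a replicate block it was 0, and the median log2 change was 1.63 for the p53 targets and -1.25 for MHC class I; deviations of same-sex mice correlated between 0.007 and 0.077, so sex was not taken to pair them, and the block changed no other call. For the difference from Car4- capillaries, 0 genes became 79 with DESeq2 and 7 with thinned cells. The median of the p53 targets was 1.89 with limma on the mean CPM over cells, and 1.46 to 2.01 with each mouse left out. The median of the DNA replication genes was -0.25 with thinned cells, 0.14 with the venous cells counted in and -0.28 to 0.21 with each mouse left out, so no direction holds for it; that of MHC class I stayed between -0.89 and -1.41 with each mouse left out. The difference in the share of dividing cells was -1.81 percentage points with Proliferative venous EC counted in. Of 589 fitted changes of 31 named genes under the alternatives, 11 passed an adjusted p of 0.05 and 0 changed sign; since most of these genes were named for their p or for groups that do not overlap, the signs are no evidence of stability. The log2 change was -1.14 for Aplnr without the female and 2.67 for Phlda3 without the male normal-air mouse. It was 1.06 for Cdkn1b without the male and 1.42 for Bmp4 without the female hyperoxia mouse, and for Flii -4.37 without the female and -1.60 without the male hyperoxia mouse. In data simulated at these depths with 2 mice per group, 10 of 100 genes changed 4-fold were called. Other depths, and changes in genes of low mean level, were not simulated.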
